A study of Mus musculus with 66 samples.

Results

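Mpdz is described here in mouse medial prefrontal cortex across the inbred strains DBA/2J and C57BL6/J and a panel of BXD recombinant inbred strains, after acute ethanol or saline. It is 1 gene of the 18193 that the array's annotation named. All probe sets annotated to Mpdz were taken, which gave 4 of 45037, and none of them carried a second gene. A probe set is a group of short oligonucleotides on the array whose signals are combined into 1 value for a transcript.

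Mpdz encodes the multiple PDZ domain protein, also called MUPP1, a scaffold built from repeated PDZ domains, which are small modules that hold the C-terminal tails of membrane proteins. In neurons it binds the serotonin receptor encoded by Htr2c, GABA-B receptors and a complex of SynGAP with calmodulin-dependent kinase at NMDA receptors, and in epithelia it sits at tight junctions with claudins. In mice Mpdz has been put forward as a gene that influences the severity of withdrawal from alcohol and barbiturates, a trait in which DBA/2J mice have strong and C57BL6/J mice mild withdrawal. No withdrawal measure was used here.

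The 66 arrays fell into 6 groups. DBA/2J and C57BL6/J each had 3 ethanol and 3 saline arrays, and each of 27 BXD strains, which are inbred mosaics of those progenitors, had 1 ethanol and 1 saline array. Ethanol was given intraperitoneally at 1.8 g/kg. All animals of every group, saline included, were males of 10 to 12 weeks that were injected, restrained for 15 minutes, placed for 10 minutes in a light-dark box, and killed 4 hours after the injection. The RNA on an array came from a pool of 4 to 5 animals, so P-values do not measure the spread between mice. In the progenitor fits they measure the spread between pools. In the fits of BXD strains, with 1 pool per strain and treatment, this spread is mixed with differences between strains in ethanol response. Samples were randomly assigned to processing batches, and the batch of an array is not used here.

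Values are log2 expression levels, so a difference of 1 is a doubling. The median level of an array was 5.67 at the lowest and 5.77 at the highest, and its standard deviation (SD) 2.06 to 2.17. The arrays highest on the first principal component, which held 13.5% of the variance, were saline BXD38 (score 28.4), saline DBA/2J replicate 1 (27.7), ethanol BXD38 (25.9) and saline BXD14 (25.3), each with an SD near the low end (2.06 to 2.07). Its scores had a correlation of -0.73 with the SD of the arrays. The progenitor strains also differed on it with little overlap. Scores ran from 1.29 to 27.7 in DBA/2J and from -20.9 to 1.81 in C57BL6/J. The part of this component in the Mpdz difference was not tested. The progenitor fits were repeated without saline DBA/2J replicate 1, and each call on a named gene that was lost there is stated. The test of Mpdz among the BXD strains and the agreement of its probe sets are also given without BXD14 and BXD38. Of the markers of excitatory neurons, the main cells of cortex, 5 of 6 passed the filter on low values, as did 4 of 6 striatal markers.

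The Mpdz probe sets differed widely in level. Over the 66 arrays, 1418664_at averaged 8.25 and lay at the 83.4th percentile of all probe sets, and 1418663_at averaged 7.10, at the 69.7th percentile. Both passed the filter, a mean at or above the 40th percentile (5.10), which 27022 probe sets passed. The other two, 1442978_at with a mean of 4.53 (29.7th percentile) and 1441361_at with a mean of 4.18 (22.8th percentile), lay below it and were tested in a fit of all 45037 probe sets. Levels of different probe sets depend on their oligonucleotides and are not compared as amounts of RNA.

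The first comparison asked whether the strains DBA/2J and C57BL6/J differ in Mpdz. The brightest probe set, 1418664_at, was lower in DBA/2J after either treatment. After saline it had levels of 7.47, 7.79 and 7.71 on the DBA/2J arrays, against 8.51, 8.65 and 8.34 on the C57BL6/J arrays. After ethanol it had levels of 7.64, 8.11 and 7.87 on the DBA/2J arrays, against 8.70, 8.29 and 8.40 on the C57BL6/J arrays. The highest DBA/2J array, 8.11 after ethanol, lay below the lowest C57BL6/J array, 8.29 after ethanol, so the strains did not overlap. Of all probe sets tested, 8.42% had no overlap between the 6 DBA/2J and the 6 C57BL6/J arrays.

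**Figure D1:**
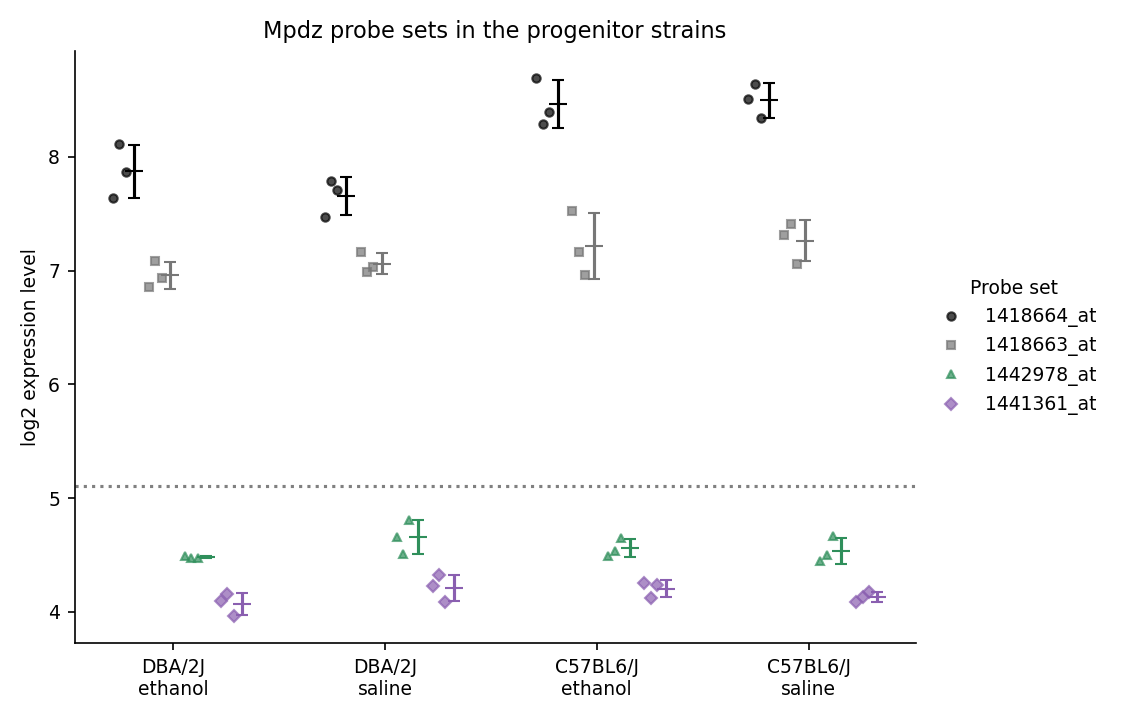
Log2 level of the 4 Mpdz probe sets on each progenitor array (points), with the mean and SD of the 3 arrays of each group beside them. The dotted line is the filter at 5.10; 1418664_at lies between 7.47 and 8.11 in DBA/2J and between 8.29 and 8.70 in C57BL6/J, and the 2 dim probe sets lie below the line.

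After saline, 1418664_at averaged 7.66 ± 0.16 in DBA/2J and 8.50 ± 0.15 in C57BL6/J (SD, n = 3 each). The difference was -0.84 (standard error, SE, 0.14; 95% interval -1.13 to -0.55), a level 1.79-fold lower in DBA/2J (interval 1.47 to 2.19), with an adjusted p of 8.15e-04 by limma, a linear model fitted across all probe sets with Benjamini-Hochberg adjustment. Of the 27022 probe sets tested, 9.07% passed the threshold of 0.05 in this comparison, and 1418664_at ranked 614 by p and 494 by size. Without the saline DBA/2J replicate 1 array the difference was -0.75 and passed with an adjusted p of 0.0058. In these bulk pools, fewer cells that express Mpdz and less Mpdz RNA per cell cannot be told apart.

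After ethanol, 1418664_at averaged 7.87 ± 0.24 in DBA/2J and 8.46 ± 0.21 in C57BL6/J (SD, n = 3 each). The difference was -0.59 (SE 0.14; 95% interval -0.88 to -0.30), a level 1.50-fold lower in DBA/2J, with an adjusted limma p of 0.0140, where 6.72% of probe sets passed. This call rested on single arrays: it was lost without ethanol C57BL6/J replicate 1 (difference -0.47, adjusted p 0.0697) and without ethanol DBA/2J replicate 1 (-0.47, adjusted p 0.0789). Averaged over both treatments, a contrast added after seeing the data, the difference was -0.72 (SE 0.10, adjusted p 8.33e-05; -0.67 without saline DBA/2J replicate 1), 1.64-fold lower in DBA/2J, and 14.2% of probe sets passed. Over the 6 arrays of each strain the means were 7.76 ± 0.22 in DBA/2J and 8.48 ± 0.17 in C57BL6/J.

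The second bright probe set, 1418663_at, pointed the same way with a smaller difference that did not pass. After saline its levels were 7.16, 6.99 and 7.03 in DBA/2J, against 7.31, 7.41 and 7.06 in C57BL6/J. After ethanol they were 6.85, 7.09 and 6.93 in DBA/2J, against 7.53, 7.17 and 6.96 in C57BL6/J. The strains overlapped after both treatments, since the lowest C57BL6/J arrays lay within the DBA/2J range. The differences were -0.20 after saline (SE 0.13, adjusted limma p 0.387; -0.25 without saline DBA/2J replicate 1), -0.26 after ethanol (SE 0.13, adjusted p 0.325) and -0.23 averaged over treatments (SE 0.09, adjusted p 0.123), whose 95% interval was -0.43 to -0.03 (-0.25, adjusted p 0.118, without that array). The averaged difference passed in 2 of the alternatives, a fit of all 66 arrays (adjusted p 0.0474) and without ethanol C57BL6/J replicate 3 (difference -0.29, adjusted p 0.0425).

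The gap between the bright probe sets on the same array was therefore compared, in a test chosen after seeing the data. The level of 1418664_at minus that of 1418663_at was 0.75 ± 0.25 on the 6 DBA/2J arrays and 1.24 ± 0.11 on the 6 C57BL6/J arrays. It ran between 0.31 and 1.02 in DBA/2J and between 1.12 and 1.44 in C57BL6/J, without overlap. The strain difference in this gap was -0.49, and an exact two-sided permutation test of strain labels within treatment gave p = 0.005, the smallest that the 400 arrangements allow. Without saline DBA/2J replicate 1 it was -0.41 (exact p = 0.005 over 200 arrangements). The size of the strain difference thus depended on the probe set read. Over the BXD strain means, 1418663_at was higher by 0.585 for each 1 on 1418664_at, so the gap also widened with level there. How much of the progenitor difference in the gap goes with level alone was not tested. Neither the oligonucleotide sequences nor sequence variants between the strains are used here, so whether variants under the probes take part in this was not tested.

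The dim probe sets showed no strain difference past the threshold. After saline, 1442978_at had levels of 4.66, 4.51 and 4.81 in DBA/2J, against 4.45, 4.50 and 4.66 in C57BL6/J. After ethanol it had 4.49, 4.48 and 4.47 in DBA/2J, against 4.49, 4.54 and 4.65 in C57BL6/J. Its differences were 0.12 after saline and -0.08 after ethanol (adjusted limma p 0.519 and 0.808), opposite in sign. For 1441361_at, levels ran from 3.96 to 4.32 over the DBA/2J arrays and from 4.09 to 4.26 over the C57BL6/J arrays. Its differences were 0.08 after saline and -0.13 after ethanol (adjusted p 0.680 and 0.602). No detection call was used, so whether the dim probe sets detect Mpdz is not known here. Differences at these levels are not read as sizes of a change in Mpdz.

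Markers of some other cell types also differed between the progenitors. The mean level of 5 of 6 oligodendrocyte markers was 8.86 to 8.95 in ethanol DBA/2J and 8.65 to 9.02 in saline DBA/2J arrays, against 9.21 to 9.48 in ethanol C57BL6/J and 9.50 to 9.58 in saline C57BL6/J arrays. The mean of 6 microglia markers was 8.29 to 8.35 in ethanol DBA/2J and 8.19 to 8.43 in saline DBA/2J arrays, against 8.48 to 8.53 in ethanol C57BL6/J and 8.43 to 8.68 in saline C57BL6/J arrays. For ependymal and choroid plexus, 3 of 6 markers passed the filter, and their mean was 6.33 to 7.79 in ethanol DBA/2J and 6.45 to 7.24 in saline DBA/2J arrays, against 6.09 to 6.30 in ethanol C57BL6/J and 6.13 to 6.23 in saline C57BL6/J arrays. Endothelial and pericyte markers, which include the tight junction gene Cldn5, averaged 7.80 in ethanol DBA/2J and 7.79 in saline DBA/2J, against 7.82 in ethanol C57BL6/J and 7.84 in saline C57BL6/J. The part of these cell types in the Mpdz difference was not tested in the progenitors.

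The second comparison asked whether Mpdz responded to ethanol 4 hours after the injection. No Mpdz probe set passed in DBA/2J, in C57BL6/J or across the BXD strains, and none had an unadjusted limma p below 0.05 there. In DBA/2J the 1418664_at levels were those given above, and the ethanol arrays (7.64 to 8.11) overlapped the saline arrays (7.47 to 7.79). The difference of ethanol minus saline was 0.22 (SE 0.14; 95% interval -0.07 to 0.51; adjusted limma p 0.543), and 0.13 without saline DBA/2J replicate 1. In C57BL6/J it was -0.03 (SE 0.14; interval -0.32 to 0.26; adjusted p 0.991), with overlapping arrays. The intervals leave room for a rise of 0.51 in DBA/2J and for a change between -0.32 and 0.26 in C57BL6/J.

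Few probe sets of any gene passed in these comparisons. In DBA/2J 0% passed, although 3222 of 27022 had an unadjusted p below 0.05, and in C57BL6/J 0.0074% passed, with 1302 below 0.05 unadjusted. The mean ethanol effect of both progenitors on 1418664_at was 0.09 (SE 0.10, adjusted limma p 0.795; 0.05 without saline DBA/2J replicate 1), where 0.0185% passed and 2508 were below 0.05 unadjusted. The difference of the ethanol effects, DBA/2J minus C57BL6/J, was 0.25 (SE 0.19; 95% interval -0.16 to 0.66; adjusted p 0.758; 0.16 without saline DBA/2J replicate 1), where 0% passed and 1991 were below 0.05 unadjusted. For 1418663_at the ethanol effect was -0.10 in DBA/2J and -0.04 in C57BL6/J (SE 0.13 each), so its sign in DBA/2J was opposite to that of 1418664_at.

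Across the BXD strains the estimate was tighter. The 27 ethanol arrays had 1418664_at levels from 7.75 through a median of 8.25 to 8.74 (mean 8.27 ± 0.24, SD), and the 27 saline arrays from 7.69 through 8.29 to 8.79 (8.29 ± 0.27). Ethanol minus saline, with strain as a block, was -0.02 (SE 0.04; 95% interval -0.10 to 0.07; adjusted limma p 0.9996), or 0.989-fold with an interval of 0.935 to 1.05. Of the 27 strains, 11 were higher after ethanol. Only 0.0074% of probe sets passed here, with 1126 below 0.05 unadjusted.

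The other probe sets had effects of similar size across the BXD strains. For 1418663_at the ethanol arrays ran from 6.79 through 7.12 to 7.42 and the saline arrays from 6.81 through 7.06 to 7.50, and the effect was 0.03 (SE 0.03) with 15 of 27 strains higher after ethanol. The effects were 0.01 for 1442978_at (15 of 27 strains higher) and -0.02 for 1441361_at (14 of 27 higher). The estimates of the bright probe sets thus had opposite signs, each with an interval that included 0.

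**Figure D2:**
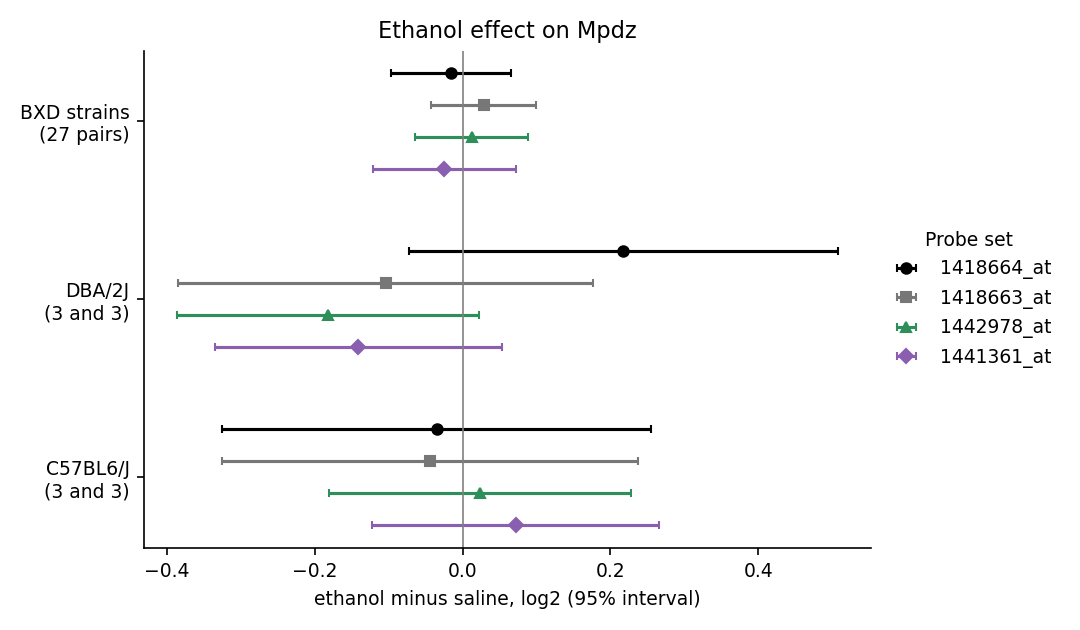
Ethanol minus saline difference on the log2 scale (points) with 95% intervals for the 4 Mpdz probe sets in the BXD strains (27 pairs of arrays), DBA/2J and C57BL6/J (3 arrays per treatment each). Every interval includes 0, and those of the BXD strains are the narrowest, as for 1418664_at at -0.10 to 0.07.

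Single strains varied around that mean. The largest rises in 1418664_at were in BXD20, at 8.74 after ethanol and 8.24 after saline, and in BXD18, at 8.39 after ethanol and 7.99 after saline. The largest falls were in BXD01, at 7.88 after ethanol and 8.23 after saline, and in BXD21, at 7.93 after ethanol and 8.29 after saline. These differences of 0.50, 0.39, -0.35 and -0.35 each rest on 1 array per treatment and have no test of their own. On the first principal component the ethanol and saline arrays of BXD20 scored -15.3 and 16.5, and those of BXD18 3.78 and 4.86. For BXD01 the scores were -4.32 and -15.5, and for BXD21 -4.31 and -11.7. The part of that component in these differences was not tested. In BXD12, BXD22 and BXD38 the levels after ethanol and after saline were nearly equal, at 8.19 and 8.19, 8.46 and 8.47, and 8.04 and 8.03.

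The third comparison asked how Mpdz was distributed over the BXD strains. Strain levels of both bright probe sets differed beyond the spread between the arrays of a strain. For 1418664_at the moderated F over 26 strain coefficients was 4.92 (adjusted limma p 2.81e-04), and the intraclass correlation of a strain's ethanol and saline arrays was 0.646, at the 93.8th percentile of all probe sets tested, whose median was 0.165. For 1418663_at F was 2.87 (adjusted p 0.0192) and the intraclass correlation 0.484, at the 86.5th percentile. Of all probe sets, 17.5% passed this test. Without BXD38 F was 4.74 for 1418664_at and 2.91 for 1418663_at, and without BXD14 5.00 and 2.90, all past the threshold. The dim probe sets did not pass, with F of 0.997 for 1442978_at and 0.507 for 1441361_at (adjusted p 0.712 and 0.981) and intraclass correlations of -0.02 and -0.38.

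The strain means of 1418664_at formed a gradient. BXD09 was lowest, at 7.75 after ethanol and 7.69 after saline, below the DBA/2J mean of 7.76. BXD36 followed at 8.01 after ethanol and 7.79 after saline, then BXD38 at 8.04 after ethanol and 8.03 after saline, on the arrays that stood apart. After these came BXD01 (strain mean 8.06), BXD27 (8.11) and BXD21 (8.11), which complete the 6 strains on the DBA/2J side of 8.12, the midpoint of the progenitor means.

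The other 21 strains lay on the C57BL6/J side. BXD28 (8.12) and BXD32 (8.13) sat just above the midpoint, and BXD14, BXD18, BXD12, BXD15, BXD05, BXD06, BXD19 and BXD31 followed between 8.19 and 8.29. BXD39 (8.35), BXD08 (8.39), BXD02 (8.42), BXD42 (8.46) and BXD22 (8.47) came next, below the C57BL6/J mean of 8.48. BXD20 (8.49), BXD33 (8.56), BXD34 (8.56), BXD23 (8.57), BXD16 (8.58) and BXD11 (8.73) lay above it. BXD11 had the highest strain mean, at 8.66 after ethanol and 8.79 after saline.

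**Figure D3:**
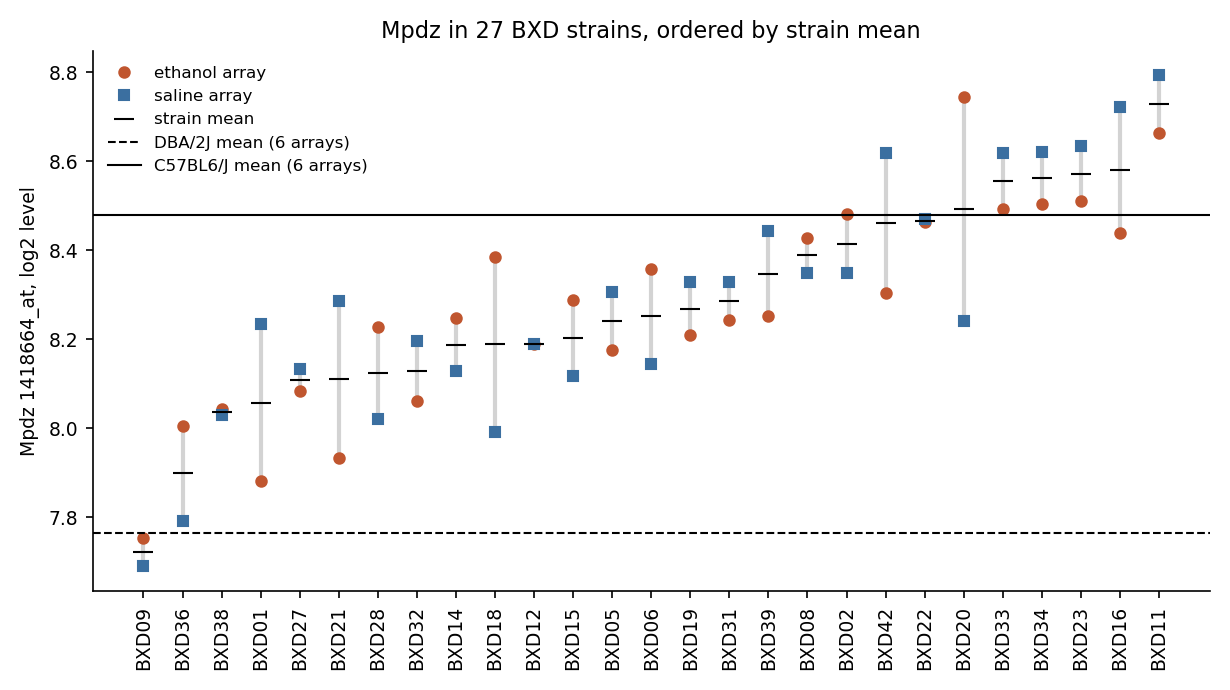
Log2 level of Mpdz probe set 1418664_at in 27 BXD strains ordered by strain mean, with 1 ethanol array (circles) and 1 saline array (squares) each, the strain mean (dash) and the means of the 6 DBA/2J arrays (dashed line) and the 6 C57BL6/J arrays (solid line). Strain means run from 7.72 in BXD09 to 8.73 in BXD11 without a gap wider than 0.18.

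The strain means spanned 1.01, against 0.72 between the progenitor means. The widest gap between neighbours in the order was 0.18, between BXD09 and BXD36, and the next was 0.15, so the strains did not form separate clusters. The SD between the arrays of a strain was 0.147, which makes 0.30 the least difference between strain means at an unadjusted 95% level. None of the 26 pairs of neighbours in the order differed by that much, and 136 of all 351 pairs did. The order of neighbouring strains is therefore not resolved, while the lowest and the highest are apart.

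On 1418663_at the strain means ran from 6.81 in BXD09 to 7.40 in BXD11, so the same strains were lowest and highest. BXD01 (6.83) and BXD36 (6.87) came next at the low end, and BXD33, BXD16 and BXD02 (7.30 each) next at the high end. With this probe set, 18 strains lay on the DBA/2J side of the midpoint of the progenitor means and 9 on the C57BL6/J side, against 6 and 21 with 1418664_at. The progenitors overlapped on 1418663_at, so its midpoint does not separate them. Of 351 pairs of strains, 84 differed by more than the least difference of 0.26.

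The bright probe sets ordered the strains alike. Over the 27 strain means their levels had a Pearson r of 0.877 and a Spearman rho of 0.828 (permutation p 1e-05 each, the smallest that 100000 resamples can give; Benjamini-Hochberg adjusted p 1.2e-04 over 12 relations). Without BXD09 and BXD11, the strains farthest from the median, r was 0.830, and without BXD14 and BXD38 it was 0.903. A strain that was higher by 1 on 1418664_at was higher by 0.585 on 1418663_at. Both probe sets were read on the same arrays. Between a strain's ethanol array for one probe set and its saline array for the other, the mean r was 0.568.

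**Figure D4:**
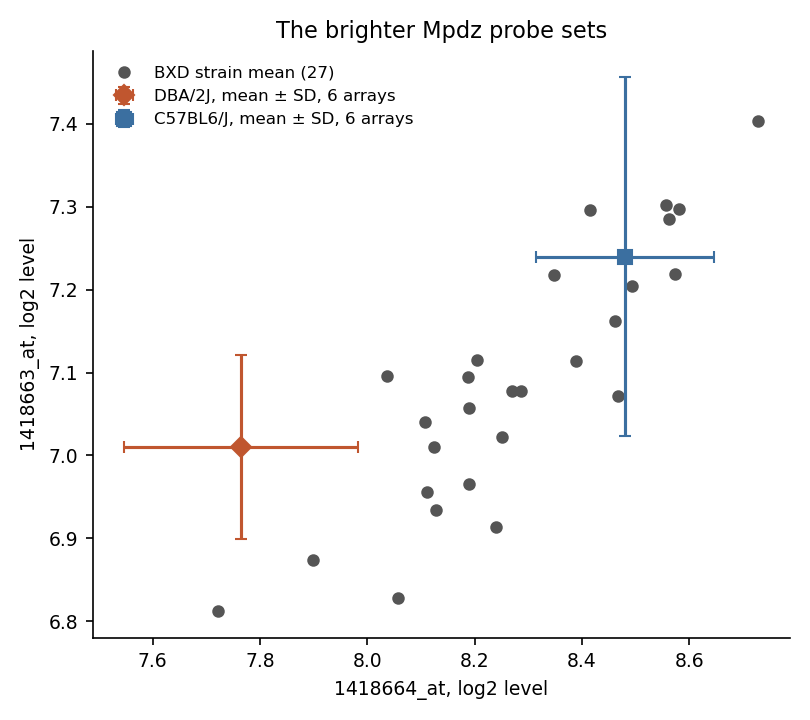
Strain means of Mpdz probe set 1418663_at (vertical, log2) against 1418664_at (horizontal, log2) for 27 BXD strains (points), with the mean and SD of the 6 arrays of DBA/2J (diamond) and of C57BL6/J (square). The strain means rise together, with a Pearson r of 0.877, and the DBA/2J point lies at 7.76 and 7.01 and the C57BL6/J point at 8.48 and 7.24.

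The ethanol minus saline differences of the bright probe sets also went together over the strains, with r = 0.571 (permutation p 0.00198, adjusted 0.0119), rho = 0.538 (adjusted 0.0253) and r = 0.439 without BXD18 and BXD20. Those differences are between single arrays, so deviations of 1 array enter both probe sets. BXD18 and BXD20 rose on both, by 0.32 and 0.27 on 1418663_at. The other 10 relations, all with a dim probe set, had r between -0.37 and 0.26, and none passed at an adjusted p of 0.05.

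Strain levels of 1418664_at were also set against the mean level of each list of cell type markers and the SD of the arrays, 11 relations in all, and none had an adjusted p below 0.05. The highest was with oligodendrocyte precursor markers (all 3 markers above the filter), at r = 0.496 (permutation p 0.0082, adjusted 0.0907), rho = 0.527 (adjusted 0.0606) and r = 0.451 without BXD38 and BXD42. Between the progenitors the precursor markers averaged 7.60 in saline DBA/2J and 7.69 in saline C57BL6/J, and 7.67 in ethanol DBA/2J and 7.66 in ethanol C57BL6/J. One of these markers, Cspg4, encodes NG2, a membrane protein that binds MPDZ. Oligodendrocyte markers, which were lower in DBA/2J, had r = -0.10 (permutation p 0.624, adjusted 0.763) and rho = -0.06 with Mpdz over the strains. Microglia markers, also lower in DBA/2J, had r = 0.370 (permutation p 0.0568, adjusted 0.235), rho = 0.352 and r = 0.354 without BXD22 and BXD39. Ependymal and choroid plexus markers, which were higher in DBA/2J, had r = -0.28 (permutation p 0.156, adjusted 0.273), rho = -0.28 and r = -0.23 without BXD06 and BXD38. Striatal markers had r = -0.34 (permutation p 0.0854, adjusted 0.235), rho = -0.48 (permutation p 0.0117, adjusted 0.0644) and r = -0.32 without BXD12 and BXD32. The SD of the arrays had r = 0.345 (permutation p 0.0791, adjusted 0.235), rho = 0.322 and r = 0.204 without BXD34 and BXD38. Endothelial and pericyte markers had r = 0.301 (permutation p 0.126, adjusted 0.273), rho = 0.214 and r = -0.04 without BXD09 and BXD16. With the other bright probe set, r was 0.303 for oligodendrocyte precursor, -0.257 for oligodendrocyte and 0.266 for microglia markers. There r was -0.202 for ependymal and choroid plexus, -0.292 for striatal, 0.278 for endothelial and pericyte markers and 0.145 for the SD. The r values of that probe set were not tested. Markers and Mpdz were read on the same arrays throughout, and r between different arrays is not given for the markers.

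Genes of proteins that bind MPDZ, or that belong to the receptors and complexes it binds, were described next. Each gene was read by its brightest probe set and its adjusted p from the same fits. The list was made with earlier results of these data known, as were the others below. Not every member is a direct ligand of MPDZ. Of 18 such genes, called partners here, 12 were measured above the filter. After saline 2 were lower in DBA/2J and 0 higher (8.78% of all 13196 genes passed), after ethanol 1 was lower and 0 higher (6.17% passed), and averaged over treatments 3 were lower (14.6% passed). Their median differences were -0.08, 0.03 and -0.02, against 0.02, 0.03 and 0.03 for all genes. Without saline DBA/2J replicate 1, 1 partner passed after saline and 1 averaged, Grin2b in both, where 5.69% and 13.4% of all genes passed.

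Grin2b, which encodes an NMDA receptor subunit, had the largest of these differences. It averaged 8.40 ± 0.21 in ethanol DBA/2J and 8.04 ± 0.22 in saline DBA/2J, against 9.18 ± 0.08 in ethanol C57BL6/J and 9.16 ± 0.25 in saline C57BL6/J (SD, n = 3 each). The strains did not overlap, and Grin2b was lower in DBA/2J. With all arrays the differences were -1.12 after saline (SE 0.14) and -0.79 after ethanol (SE 0.14, adjusted limma p 0.0019). In the separate fit without saline DBA/2J replicate 1, the saline difference passed with an adjusted limma p of 4.49e-04. Plekha2, a phosphoinositide-binding adaptor, averaged 7.56 ± 0.13 in saline DBA/2J and 7.89 ± 0.07 in saline C57BL6/J, a difference of -0.33 (adjusted p 0.0325) whose call was lost without that array (-0.28, adjusted p 0.128, and averaged over treatments 0.0948), and differed by -0.08 after ethanol. Gabbr1, the GABA-B receptor subunit that binds ligand, passed only averaged over treatments (-0.20, adjusted p 0.0479), and not without that array (adjusted p 0.0666).

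Htr2c, whose receptor was the first known MPDZ ligand, did not pass between the progenitors (-0.06 after saline and 0.19 after ethanol, adjusted limma p 0.806 and 0.457). Among the BXD strains 4 of the 12 partners differed, namely Grin2b, Htr2c, Plekha2 and Gabbr1, where 18% of all genes passed. Their levels had Pearson r with Mpdz over the strain means of 0.21 for Grin2b, 0.33 for Htr2c, -0.39 for Plekha2 and 0.24 for Gabbr1, given as descriptions from the same arrays. None of the 12 passed for ethanol in any comparison, and at most 1 had an unadjusted limma p below 0.05 in any of them. The share of all genes that passed was 0% in DBA/2J and for the difference of the strains' responses, 0.00758% in C57BL6/J and in the BXD strains, and 0.0379% for the mean of the progenitors.

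Of 33 tight junction and polarity genes, 26 were measured. After saline Patj was higher and Cldn11 lower in DBA/2J, 2 of 26 (7.69%) against 8.78% of all genes, and after ethanol 0 passed, with 5 below 0.05 unadjusted by limma, where 6.17% of all genes passed. Patj encodes the multi-PDZ protein closest in structure to MPDZ, and averaged 5.75 ± 0.09 in saline DBA/2J and 5.35 ± 0.05 in saline C57BL6/J (difference 0.40, SE 0.09, adjusted limma p 0.0116; 0.45, adjusted p 0.0169, without saline DBA/2J replicate 1). After ethanol it averaged 5.50 ± 0.16 in DBA/2J and 5.38 ± 0.08 in C57BL6/J, a difference of 0.11 that did not pass. The strain differences of Patj and the bright Mpdz probe sets after saline were opposite in sign.

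Cldn11 encodes the claudin of myelin and averaged 7.10 ± 0.18 in saline DBA/2J and 7.83 ± 0.10 in saline C57BL6/J (-0.73, SE 0.13, adjusted limma p 0.0022; -0.63, adjusted p 0.0141, without saline DBA/2J replicate 1), the direction of the oligodendrocyte markers given above. Averaged over treatments, Pard6g, a polarity adaptor, was higher (0.23) and Ocln, the junction protein occludin, lower (-0.17) in DBA/2J beside Patj and Cldn11, 4 of 26 (15.4%) against 14.6% of all genes. The Ocln call was lost without that array (adjusted p 0.0611). Cldn5, the endothelial claudin, and Tjp1, the junction scaffold ZO-1, did not pass, at -0.20 and -0.13 after saline. The median difference of the list was 0.02 after saline, as for all genes. Among the BXD strains 4 of the 26 differed, Amot, Cldn5, Cldn11 and Crb3, which is 15.4% against 18% of all genes.

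Of 22 synaptic PDZ scaffold genes, 18 were measured, and 0 passed between the progenitors after saline or after ethanol, with 3 below 0.05 unadjusted by limma in each, where 8.78% and 6.17% of all genes passed. Averaged over treatments 2 (11.1%, against 14.6% of all genes) were higher in DBA/2J: Gipc1, an endocytic adaptor (0.28, adjusted p 0.0292), and Pick1, which binds AMPA receptors (0.20, adjusted p 0.0438). Among the BXD strains 6 differed (33.3%, against 18% of all genes), of which Apba2, a presynaptic adaptor, had the smallest adjusted p (0.0034). No gene of the junction or scaffold lists passed for ethanol in any comparison, and at most 3 of a list had an unadjusted limma p below 0.05.

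The genes beside Mpdz on its chromosome were examined because recombinant inbred strains inherit blocks of chromosome, so neighbours are often inherited together. The 10 measured genes on either side, in the RefSeq gene order of mouse assembly GRCm38.p6, had Pearson r with Mpdz over the strain means from -0.34 to 0.73, with a median size of 0.246, against 0.225 for all 13195 other genes. Of the 20, 4 reached 0.5 in size: Ttc39b (0.73), Sh3gl2 (0.64), which encodes the endocytic protein endophilin A1, Cntln (0.56), a centrosomal protein, and Zdhhc21 (0.54), a palmitoyltransferase. All of these lie on the side that begins with Nfib, and r between different arrays was lower, at 0.31, 0.38, 0.33 and 0.15. On the whole chromosome 59 of 799 genes (7.38%) reached 0.5, and on other chromosomes 644 of 12396 (5.20%).

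**Figure D5:**
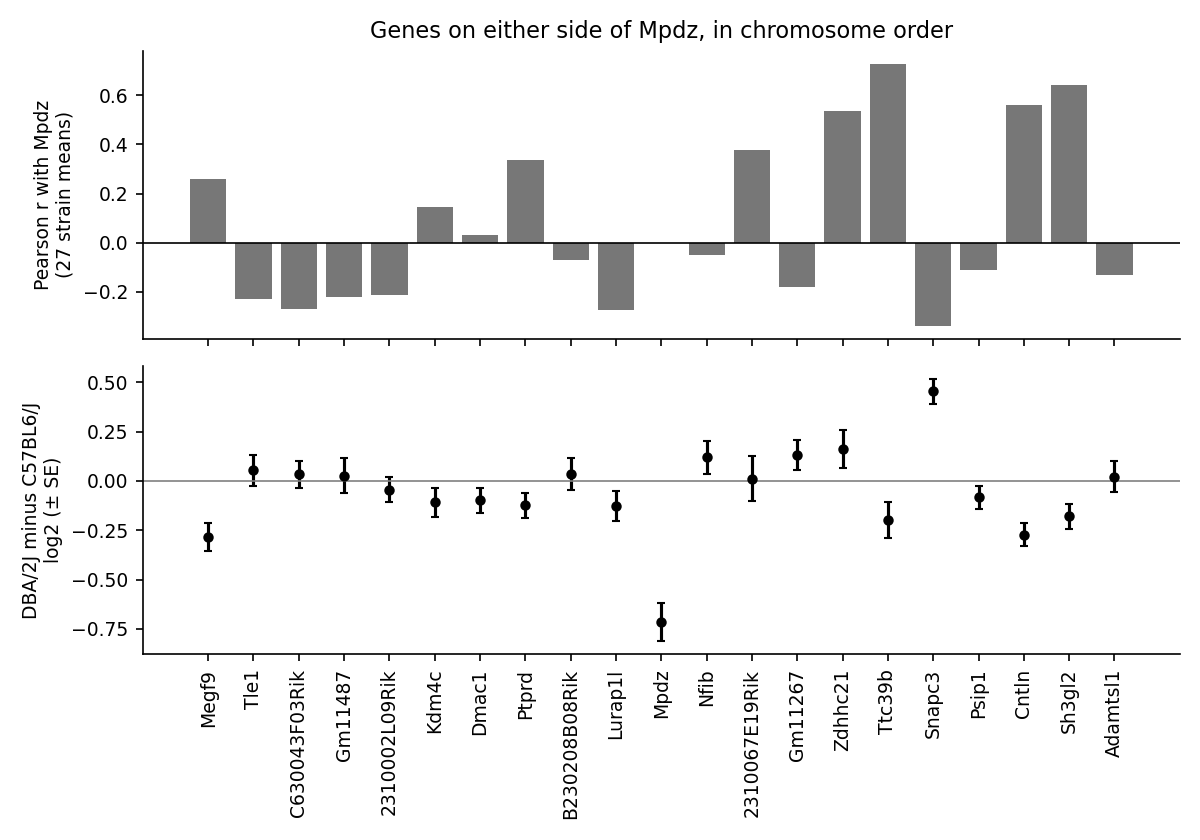
The 20 measured genes on either side of Mpdz in chromosome order: above, the Pearson r of each gene's strain mean with that of Mpdz probe set 1418664_at over 27 BXD strains, and below, the DBA/2J minus C57BL6/J difference averaged over treatments (log2, with SE) including Mpdz. Mpdz, drawn by 1418664_at, lies at -0.72 (1418663_at, not drawn, has -0.23), Snapc3 is higher in DBA/2J at 0.45, and r is above 0.5 for Zdhhc21, Ttc39b, Cntln and Sh3gl2.

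Of the neighbours, 1 of 20 (5%) passed after saline, 2 (10%) after ethanol and 3 (15%) averaged over treatments, against 8.78%, 6.17% and 14.6% of all genes. Snapc3, a subunit of the complex that starts transcription of small nuclear RNA genes, averaged 8.59 ± 0.03 in saline DBA/2J and 8.27 ± 0.04 in saline C57BL6/J, and 8.75 ± 0.06 in ethanol DBA/2J and 8.16 ± 0.15 in ethanol C57BL6/J. It was higher in DBA/2J by 0.32 after saline (adjusted limma p 0.0321) and 0.59 after ethanol (adjusted p 3.96e-04), opposite to Mpdz, and its saline call was lost without saline DBA/2J replicate 1 (0.32, adjusted p 0.0828). Its r with Mpdz over the strains was -0.34. Cntln was lower in DBA/2J after ethanol (-0.38, adjusted p 0.0101), and Megf9 passed averaged over treatments (-0.28, adjusted p 0.0141).

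Snapc3 and Lurap1l were the 2 of 20 neighbours that differed among the BXD strains, 10% against 18% of all genes. Snapc3 had an adjusted limma p of 6.73e-08 and Lurap1l one of 0.0351. Ttc39b, Sh3gl2, Cntln and Zdhhc21 did not pass, with adjusted p values of 0.392, 0.336, 0.101 and 0.854. The neighbours whose strain means were most like Mpdz were not among those that passed this test.

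The 8 genes most like Mpdz, by the size of Pearson r over the 27 strain means, were Gpr158 (0.73), Ttc39b (0.73), Aebp1 (-0.73), Sik1 (-0.72), Stag2 (0.72), Dennd11 (0.71), Eml5 (0.71) and Steap3 (-0.70). Gpr158 encodes an orphan receptor of neurons, Aebp1 a secreted matrix protein, Sik1 a salt-inducible kinase, Stag2 a cohesin subunit, Eml5 a microtubule-associated protein and Steap3 a metalloreductase of iron uptake. These are the extremes of 13195 correlations from shared arrays, of which 703 (5.33%) reached 0.5 in size. Read on different arrays, with Mpdz on the ethanol array and the gene on the saline array or the reverse, mean r was 0.28 to 0.33 for the 5 positive genes and -0.40 to -0.51 for the 3 negative ones, against 0.568 for 1418663_at. Only Ttc39b shares the chromosome of Mpdz, and none of the 8 passed between the progenitors, among the BXD strains or for ethanol. Unadjusted limma p values below 0.05 occurred for Gpr158 (ethanol in DBA/2J and the mean of the progenitors), Ttc39b (progenitors averaged over treatments) and Sik1 (ethanol in the BXD strains).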

How the data were processed

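RNA of 66 arrays was measured on Affymetrix arrays. Deposited values are log2 levels per probe set. Per the submitters' processing notes, the tools were affy and RMA, whose versions the sources used here do not give. RMA makes the arrays' distributions alike, so levels are relative. Of 45037 probe sets, 34945 had 1 gene symbol, 932 several and 9160 none; 34741 symbols were updated by Entrez identifier through RefSeq (GRCm38.p6), used for names and gene order.

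Probe sets with a mean at or above the 40th percentile were fitted with limma 3.58.1 (lmFit, eBayes, two-sided) in R 4.3.3, and called at a Benjamini-Hochberg adjusted p below 0.05. The 12 progenitor arrays shared 1 fit (8 residual degrees of freedom). The 54 BXD arrays were fitted with strain as a block (26). Strain pairs these arrays: 23 of 27 saline arrays, and 23 of 27 ethanol arrays, correlated best with the other array of their own strain. Correlations were tested with Python 3.11.15 and scipy 1.17.1. Scripts were tested on simulated data.

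Named genes were every Mpdz probe set, the 8 genes with the largest correlation with Mpdz, the 10 measured neighbours on either side, and list genes past the threshold with a few of fixed name. Members, lists, tests and alternatives were chosen with earlier results of these data known.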

Additional observations from a re-analysis of the deposited data

How the results depend on the processing

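With 9 or 10 alternatives of filter, scaling, prior, array weights, arrays fitted and block, 1418664_at stayed lower in DBA/2J and past the threshold after saline (-0.88 to -0.77), after ethanol (-0.64 to -0.58) and averaged (-0.73 to -0.71). Leaving out 1 array gave -0.92 to -0.75 after saline, -0.77 to -0.66 averaged and -0.71 to -0.47 after ethanol, where the call was lost for 2 of 6 arrays. The BXD ethanol effect stayed between -0.05 and -0.01 in 10 alternatives, and none of the ethanol effects passed.

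The ethanol effect in C57BL6/J changed sign with repeated quantile normalization (0.021) and ran from -0.15 to 0.051 when 1 array was left out. For 1418663_at, leaving out 1 array gave -0.20 to 0.085 for the C57BL6/J ethanol effect and -0.19 to 0.095 for the difference of responses.

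Reading another probe set in place of the brightest changed most values; the cause was not tested. With 1418663_at, 1441361_at and 1442978_at in turn, DBA/2J minus C57BL6/J was -0.20, 0.080 and 0.12 after saline, -0.26, -0.13 and -0.081 after ethanol and -0.23, -0.027 and 0.022 averaged. The ethanol effect was -0.10, -0.14 and -0.18 in DBA/2J, -0.074, -0.034 and -0.079 for the mean of both progenitors, and -0.060, -0.21 and -0.21 for the difference of responses. In C57BL6/J it was 0.072 with 1441361_at and 0.024 with 1442978_at, and in the BXD strains 0.028 with 1418663_at and 0.013 with 1442978_at. The strain F was 0.507 with 1441361_at and 0.997 with 1442978_at.

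The progenitor arrays share replicate numbers, but these do not pair them: correlations of deviations were -0.35 to 0.23 for 18 pairs of the same number and -0.30 to 0.38 for 36 of different number. With the replicate block, 1418664_at had an adjusted limma p of 0.0022 after saline and 0.0246 after ethanol, so no Mpdz call changed. The block moved the probe sets called for the mean ethanol effect to 1 and for ethanol in C57BL6/J to 0.

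Counts of probe sets called over the whole table moved by over 1.5 times as follows. With 1 probe set per gene, 13196 were tested in place of 27022. The counts were then 1365 after saline, 954 after ethanol, 2206 averaged, 2688 among BXD strains, 1 for ethanol in C57BL6/J and 1 in the BXD strains. The mean ethanol effect had 3 without a filter, and 1 to 4 when 1 array was left out. Ethanol in DBA/2J had 4 with a trended, robust prior, 1 with array weights, 35 with all 66 arrays and 0 to 3 when 1 array was left out. Ethanol in C57BL6/J had 0 with all 66 arrays and 0 to 1 when 1 array was left out. The BXD effect had 1 with a filter at the 60th percentile and 2 to 7 when 1 strain was left out, 7 without BXD21, 5 without BXD23 and 4 without BXD27 or BXD32. After saline, 948 probe sets were higher and 1503 lower in DBA/2J, and 672 higher and 1794 lower when each array was centred on its median.

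The agreement of the bright probe sets was between 0.782 (saline arrays alone) and 0.903 where both were read on the same arrays, and 0.568 where they were read on different arrays of a strain. In the alternatives 5 to 7 strains lay on the DBA/2J side, but not always the same strains. BXD01, BXD21 and BXD27 had saline levels of 8.23, 8.29 and 8.13, above the midpoint of 8.12 over both treatments. Their ethanol levels of 7.88, 7.93 and 8.08 lay below it. The number of arrays limits the precision, with 3 per progenitor group and 1 per strain and treatment. Signal of the 2 dim probe sets lies below the filter, so they give no bound on a change of Mpdz.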
